A study of Mus musculus with 6 samples.

Results

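The genes of the core circadian clock were followed in 3T3-L1, a mouse preadipocyte line of fibroblast shape that is used to make fat cells in the dish, with and without resveratrol, a plant polyphenol. The set holds 10 genes, Arntl, Clock, Npas2, Per1, Per2, Per3, Cry1, Cry2, Dbp and Nfil3. Their members on the array were all probe sets annotated to exactly 1 of these genes, 23 of the 34945 probe sets that name 1 gene, out of 45101 in the table. Control cells were untreated, treated cells were given resveratrol, and each group had 3 replicate cultures, each measured on 1 one-colour oligonucleotide array. Dose, duration, state of differentiation and hour of harvest are not in the labels. Nor do they state that the cultures were independent, and each p-value reflects no more than the variation among these 6. Only 6 arrays were measured, which limits the precision of every value.

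The circadian clock is a feedback loop of transcription. Arntl (also called Bmal1) pairs with Clock or its relative Npas2, binds E-boxes in DNA and switches on the Per and Cry genes, whose proteins in turn hold back that pair. Further loops run through the nuclear receptors of the Rev-erb and Ror families, which act on Arntl, and through Dbp and Nfil3, which compete for D-box sites as activator and repressor. Cells of a culture dish keep this oscillator running, but their phases drift apart unless a stimulus aligns them, and in bulk RNA a change of phase, of synchrony and of level cannot be told apart.

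The promoters of these genes are where the loops are known to act, so the stretches that hold a clock motif upstream of the start site are given first. RefSeq (GRCm38.p6) had 13 promoter windows for 9 of the 10 genes, each 300 bases long, and none for Per2. They were searched on both strands for the E-box CACGTG, the variant E-box CACGTT, the D-boxes TTATGTAA and TTACGTAA, the core of the Ror and Rev-erb site TAGGTCA, and the cyclic AMP element CRE TGACGTCA. There were 8 matches, of which 0 overlapped another. The 5 lines below run 5′ to 3′ along the strand of the gene, and capitals mark the match.
Per3 (chr4:151044801-151044885, minus strand): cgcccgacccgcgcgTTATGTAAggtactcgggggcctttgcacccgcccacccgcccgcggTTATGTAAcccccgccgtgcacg
Cry1 (chr10:85185094-85185148, minus strand): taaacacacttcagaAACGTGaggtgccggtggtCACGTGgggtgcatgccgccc
Per1 (chr11:69098768-69098803, plus strand): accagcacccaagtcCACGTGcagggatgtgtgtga
Cry2 (chr2:92434215-92434250, minus strand): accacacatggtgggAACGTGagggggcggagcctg
Nfil3 (chr13:52981040-52981066, minus strand): cgcggcgctcggaacTGACCTActaac
The Per3 window holds 2 copies of the D-box TTATGTAA, which begin 205 and 158 bases before the start, 47 bases apart. That motif was in 0.938% of all 32851 promoter windows and in no other window of the set. Cry1 holds the E-box and, on the other strand, the variant E-box, Per1 the E-box, and Cry2 the variant on the other strand. These were in 7.15% (E-box) and 4.68% (variant) of all windows. The TAGGTCA core, in 2.61% of all windows, was found on the other strand of Nfil3, 12 bases before its start, and in 1 Arntl window after the start. TTACGTAA, in 0.119% of all windows, and the CRE, in 1.79%, were in none of the 13. A match is a stretch of letters and not a measured binding site.

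Per3 was the member whose signal fell with resveratrol, and it did so at 1 of its 6 probe sets. Of the 23 member probe sets, 21 were bright enough to be tested, 1 was called lower, 0 were called higher and 20 did not pass. Calls rest on the limma fit across all 27022 probe sets tested, with a Benjamini-Hochberg adjusted p under 0.05. Over all probe sets tested that fit called 8.17%, 4.22% lower and 3.95% higher, so the share among the clock probe sets was near the background. At an unadjusted p under 0.05 there were 4 of 21, where all probe sets gave 21.7%. Groups did not overlap at 5 of the 21, 4 with resveratrol lower and 1 higher, where 26.4% of all probe sets showed this, 12.6% lower and 13.8% higher. The median difference on log2(intensity + 16), the scale of every log2 value here, was -0.05 over the 21 and 0.01 over all probe sets tested, and single values ran from -0.46 to 0.22.

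**Figure D1:**
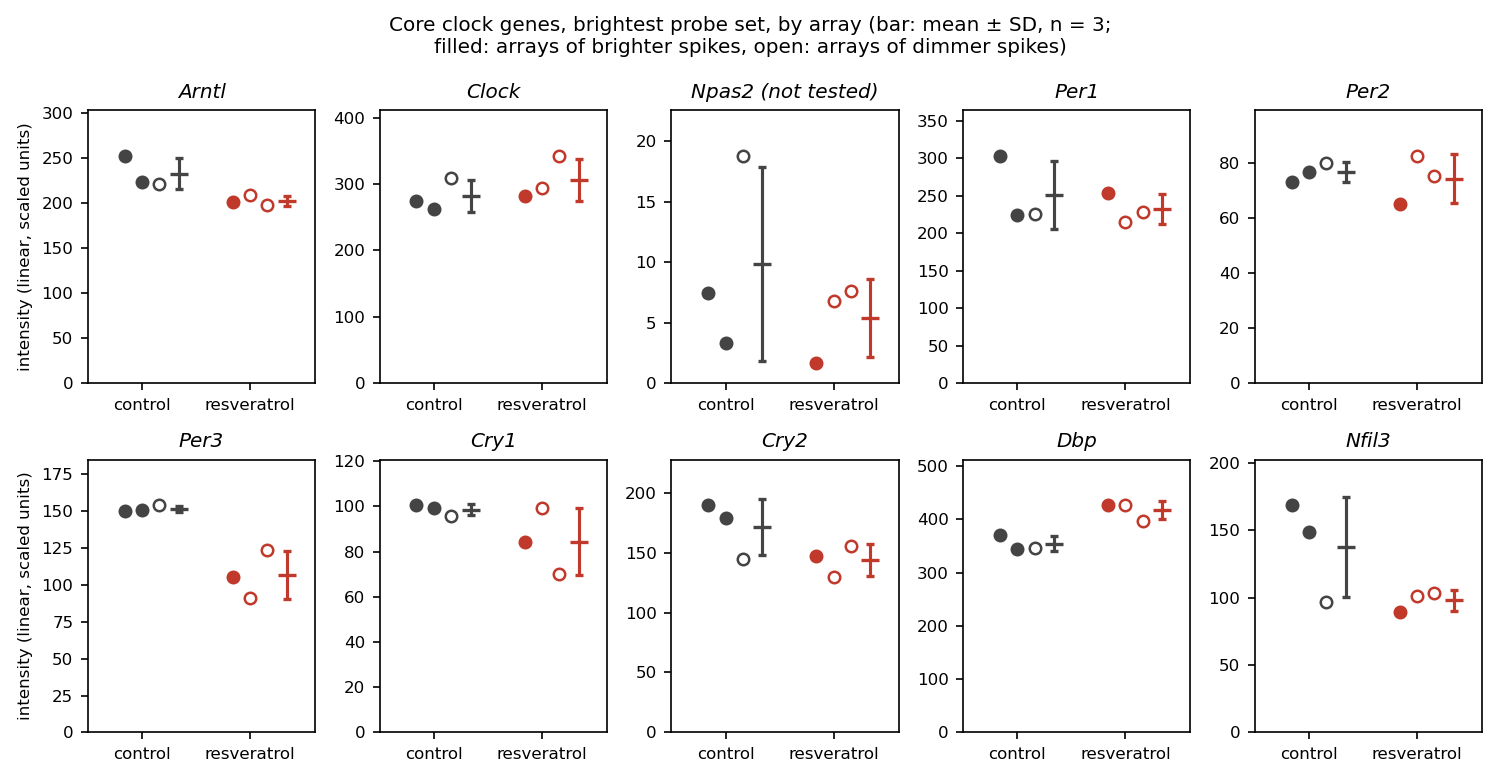
Intensity of the brightest probe set of each of the 10 genes (linear, scaled units) on the 3 control and 3 resveratrol arrays, with the mean and SD of each group (n = 3). Filled points are arrays with brighter hybridisation spikes, open points arrays with dimmer ones. The groups do not overlap for Arntl, Per3 and Dbp, and Nfil3 of control replicate 3 lies among the treated arrays.

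Before the genes, some facts of the whole series bear on them. The hybridisation spikes, control RNAs added to the labelled target, were brighter on control replicates 1 and 2 and resveratrol replicate 1 (lowest mean log2 spike signal 10.48) than on the other 3 arrays (highest 10.01). Differences within each of these sets of arrays are given beside some of the results, not all, and each set holds 1 array of one of the groups. The cells carried fat cell and fibroblast markers together, with mean control intensities of 11745 for Fabp4, 8620 for Adipoq, 3854 for Dlk1 and 1568 for Pdgfra. Lep, also a fat cell marker, was too dim to test, with means of 14.9 in control and 5.43 in treated cells. Of the markers of other cell types, Ptprc of white blood cells, Pecam1 of endothelium and Myog of muscle were below the intensity of about 20.3 needed for the test. Others were above it, with mean intensities in control and treated cells of 90.9 and 104 for Csf1r of macrophages, 71.6 and 91.7 for Ckm of muscle, and 70.1 and 57.4 for Krt8 of epithelium. Epcam of epithelium was uneven within the control group, from 22.5 to 246. None of these 4 passed the test. Dimmer markers that were tested did not pass either, with means of 42.4 and 40.6 for Adgre1 and 25.6 and 31.4 for Cd68 of macrophages. The same held for Cdh5 of endothelium, at 22.3 and 23.7. Of the fat cell markers tested, Cidec passed, at -0.57 (adjusted p = 0.0078), and Fabp4 and Adipoq had -0.22 and -0.31 (adjusted p = 0.517 and 0.303). The fibroblast markers did not move one way: Thy1 passed at 0.40 (adjusted p = 0.0078), while Col1a1 had -0.32 (adjusted p = 0.0757), Pdgfra -0.07 and Dlk1 0.08. The part of these markers in the clock values was not tested. In these bulk cultures fewer cells of a kind and less RNA per cell cannot be told apart.

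Among the activators, Arntl had intensities of 253, 223 and 221.5 in control cells and 201, 208 and 197.5 in treated cells. All 3 treated arrays were below all 3 control arrays, by a small margin. The means were 232 ± 17.4 (SD, n = 3) and 202 ± 5.58, a log2 difference of -0.19 ± 0.09 (SE), which did not pass (adjusted p = 0.256). Its 95% interval ran from -0.38 to 0.01, and it was -0.23 on the arrays of brighter and -0.12 on those of dimmer spikes. The other Arntl probe set was dimmer, at 46.2 to 53.6 in control and 44.7 to 57.2 in treated cells, and had 0.01 (adjusted p = 0.975), with 0.21 on the arrays of brighter and -0.15 on those of dimmer spikes. Its groups overlapped, so the small gap of the brighter probe set had no counterpart there.

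Clock, the partner of Arntl and a histone acetyltransferase, had 4 probe sets that did not tell 1 story. The brightest had 274, 262 and 309 in control and 281, 294 and 343 in treated cells, a log2 difference of 0.11 ± 0.10 (adjusted p = 0.579), with overlapping groups. The next, 1418660_at, had 150, 170.5 and 133 in control and 112.5, 98.3 and 123 in treated cells, so its groups lay apart. Its log2 difference was -0.39 ± 0.12 (95% interval -0.66 to -0.12), which missed the threshold with adjusted p = 0.0779. It was -0.45 on the arrays of brighter and -0.24 on those of dimmer spikes, and -0.34 with the split as a block (adjusted p = 0.15). The remaining Clock probe sets had 0.12 and 0.07, with adjusted p = 0.722 and 0.867, and overlapping groups. The last of these, 1439314_at, had -0.24 on the arrays of brighter and 0.27 on those of dimmer spikes. The 2 brightest name the same sequence record in the array's annotation, so their difference was set out within each array. The log2 of 1418660_at less that of the brightest probe set was -0.81, -0.58 and -1.13 on the control arrays and -1.21, -1.44 and -1.37 on the treated ones. All 3 treated arrays were lower, by a mean of -0.50, with an exact permutation p = 0.1 (2-sided, n = 3), the smallest that 3 against 3 arrays allow. This comparison was added after the probe sets were seen to differ, and the mean of the 4 probe sets gave Clock -0.02 (adjusted p = 0.921).

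Npas2, the relative that can stand in for Clock, was too dim to test. Its probe sets had 7.43, 3.30 and 18.8, and 3.56, 4.90 and 2.80, in control cells. In treated cells they had 1.70, 6.80 and 7.60, and 3.10, 3.10 and 3.00. The filter on the mean level kept probe sets above an intensity of about 20.3, and both lay below it in both groups.

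Among the repressors, Per3, the period gene with the mildest loss-of-function effect on rhythm, had the largest difference of all members. The brightest Per3 probe set, 1421087_at, had 150, 151 and 154 in the control cultures and 105.5, 91.2 and 124 in the treated ones. The controls were almost equal, and each treated array was lower than each control. The means were 152 ± 2.18 and 107 ± 16.4 (SD, n = 3), a log2 change of -0.46 ± 0.12 (SE, 95% interval -0.71 to -0.20) with adjusted p = 0.0361 by limma. That is a fold of 0.728. The signal fell by 27.2% on the log2(intensity + 16) scale, which understates changes of dim probe sets. The difference was -0.45 on the arrays of brighter spikes and -0.47 on those of dimmer spikes. With that split as a block it was -0.46 but did not pass (adjusted p = 0.0626).

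At this Per3 probe set the fall kept its sign under every setting, and its call did not hold. Under 15 other settings the log2 change lay between -0.56 and -0.34, with 7 that passed and 8 that did not. A change of filter, of intensity trend or of replicate block cannot alter the log2 change, so those settings say nothing about its size. The mean over the Per3 probe sets, given below, is not among the 15 and was a smaller fall. Leaving out control replicate 1, 2 or 3 gave adjusted p = 0.0678, 0.0996 and 0.0854, and leaving out resveratrol replicate 1 or 2 gave 0.101 and 0.135, while without resveratrol replicate 3 it was 0.0241. Testing all probe sets with no filter gave 0.0731, and a fit with no intensity trend 0.0819.

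**Figure D2:**
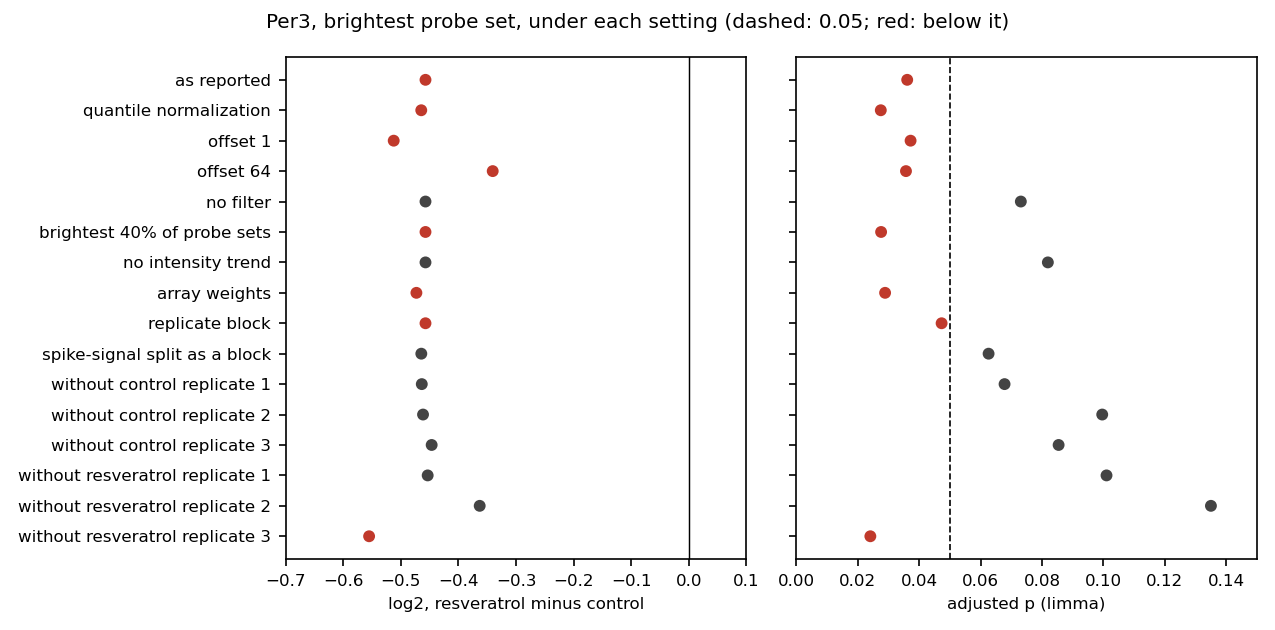
Log2 change (left) and limma adjusted p (right) of the brightest Per3 probe set as reported and under 15 other settings, with red points where the adjusted p is under 0.05. The log2 change stays between -0.56 and -0.34, and 8 of the 15 settings lie beyond the dashed line at 0.05.

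The other 5 Per3 probe sets were dimmer, and none passed. The next in brightness, 1460662_at, had 66.5, 73.5 and 67.2 in control and 62.0, 40.7 and 58.4 in treated cells, again with no overlap, and a log2 difference of -0.30 ± 0.15 (adjusted p = 0.29), or -0.14 on the arrays of brighter and -0.36 on those of dimmer spikes. Another, 1421086_at, had -0.18 (adjusted p = 0.585), with 51.5, 52.6 and 41.7 in control and 49.2, 37.2 and 37.3 in treated cells. These 3 probe sets name the RefSeq transcript of Per3 in the annotation. The 3 that name other records had -0.08, -0.02 and -0.02, with adjusted p = 0.858, 0.966 and 0.975, and overlapping groups. On the arrays of brighter spikes these 3 had 0.09, 0.24 and 0.20, and on those of dimmer spikes -0.37, -0.25 and -0.19. Within each array, the log2 of the brightest less the mean of the other 5 was 1.40, 1.29 and 1.28 in control and 0.82, 1.05 and 1.08 in treated cells. It was lower on all 3 treated arrays, by a mean of -0.34 (exact permutation p = 0.1, 2-sided, n = 3, the smallest possible), a comparison added after the values were seen. The brightest less the other probe set gave -0.20 for Arntl and 0.12 for Dbp (exact permutation p = 0.3 and 0.4). The Per3 and Clock contrasts use a probe set already seen to lie apart between the groups, so they are no separate evidence of that gap. The mean of the 6 probe sets gave Per3 -0.17, which did not pass (adjusted p = 0.463).

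**Figure D3:**
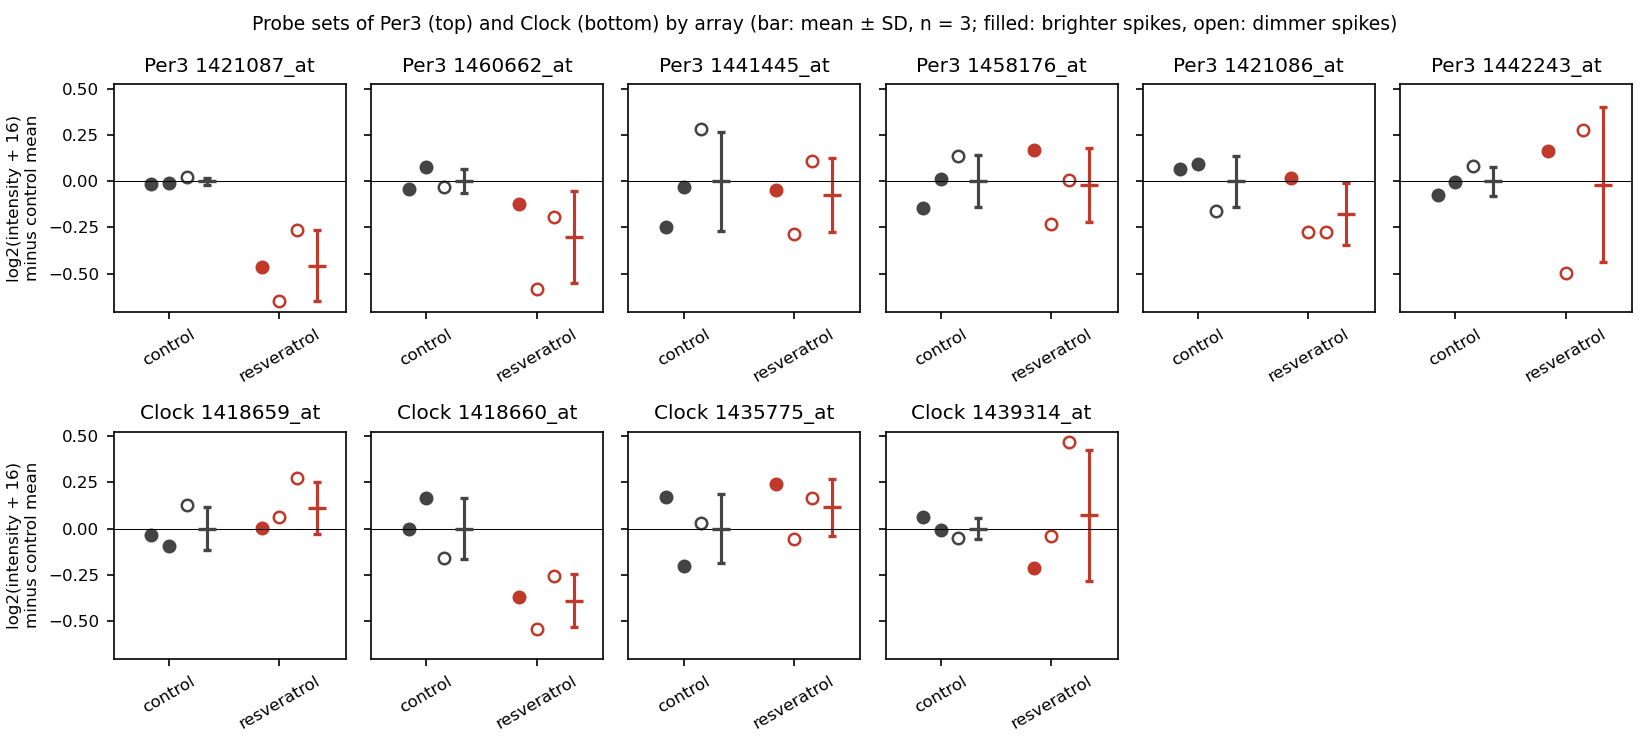
Log2(intensity + 16) minus its control mean for the 6 probe sets of Per3 (top) and the 4 of Clock (bottom), ordered by brightness, on each array, with the mean and SD of each group (n = 3). The groups lie apart at the Per3 probe sets 1421087_at and 1460662_at and at the Clock probe set 1418660_at, and they overlap at the others.

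Per1 and Per2, the period genes that answer directly to stimuli that reset the clock, had small differences. Per1 had 303, 224 and 225 in control and 254, 215 and 228 in treated cells, a log2 difference of -0.09 ± 0.12 (95% interval -0.36 to 0.17, adjusted p = 0.726). Control replicate 1 alone stood higher, and without it the value was 0.04 (adjusted p = 0.863). The brightest Per2 probe set had 73.1, 76.9 and 80.2 in control and 65.1, 82.7 and 75.3 in treated cells, a log2 difference of -0.04 ± 0.13 (95% interval -0.32 to 0.24, adjusted p = 0.899). Its other probe sets had -0.05 and 0.14, with adjusted p = 0.911 and 0.77. The second of these, 1457350_at, had 29.6, 27.4 and 40 in control and 40.4, 48.0 and 24.7 in treated cells, with 0.34 on the arrays of brighter and -0.13 on those of dimmer spikes. The groups overlapped at every Per1 and Per2 probe set, and these intervals still allow changes of about the size measured for Arntl.

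The cryptochromes, the strongest repressors of the Arntl and Clock pair, both had lower treated means within overlapping groups. Cry1 had 101, 99.2 and 95.8 in control and 84.1, 99.3 and 69.9 in treated cells. Resveratrol replicate 2 was at the control level. The log2 difference was -0.20 ± 0.13 (95% interval -0.49 to 0.09, adjusted p = 0.432). Cry2 had 190, 179 and 145 in control and 147, 129 and 155 in treated cells, with control replicate 3 at the treated level. Its log2 difference was -0.22 ± 0.12 (95% interval -0.48 to 0.04, adjusted p = 0.311). It was -0.30 on the arrays of brighter spikes and -0.03 on those of dimmer spikes, and fitting the split as a block gave -0.16 (adjusted p = 0.503).

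Of the D-box pair, neither passed the test. Dbp, the activator and a direct output of the E-box loop, had 372, 345 and 347 in control and 426, 427 and 397.5 in treated cells at its brightest probe set. All 3 treated arrays were above all 3 controls. The means were 354 ± 14.8 and 417 ± 16.7 (SD, n = 3), a log2 difference of 0.22 ± 0.08 (95% interval 0.06 to 0.39) with adjusted p = 0.103. It was 0.24 on the arrays of brighter and 0.24 on those of dimmer spikes, and it did not pass under any of the 15 other settings, where it lay between 0.20 and 0.26. The other Dbp probe set had 244, 278 and 258 in control and 291, 286 and 264 in treated cells, a log2 difference of 0.10 ± 0.09 (adjusted p = 0.56).

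Nfil3, the repressor at D-boxes, had 169, 148 and 96.7 in control and 89.0, 101.5 and 103.5 in treated cells. Control replicates 1 and 2 stood above every treated array, and control replicate 3 lay among them. The log2 difference was -0.40 ± 0.17 (95% interval -0.77 to -0.04) with adjusted p = 0.18. It rests on the arrays of brighter spikes, with -0.73 there and 0.07 on those of dimmer spikes. Without control replicate 3 it was -0.61 and passed (adjusted p = 0.0176), the only 1 of 15 settings in which it did, and that fit leaves only arrays of brighter spikes among the controls.

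**Figure D4:**
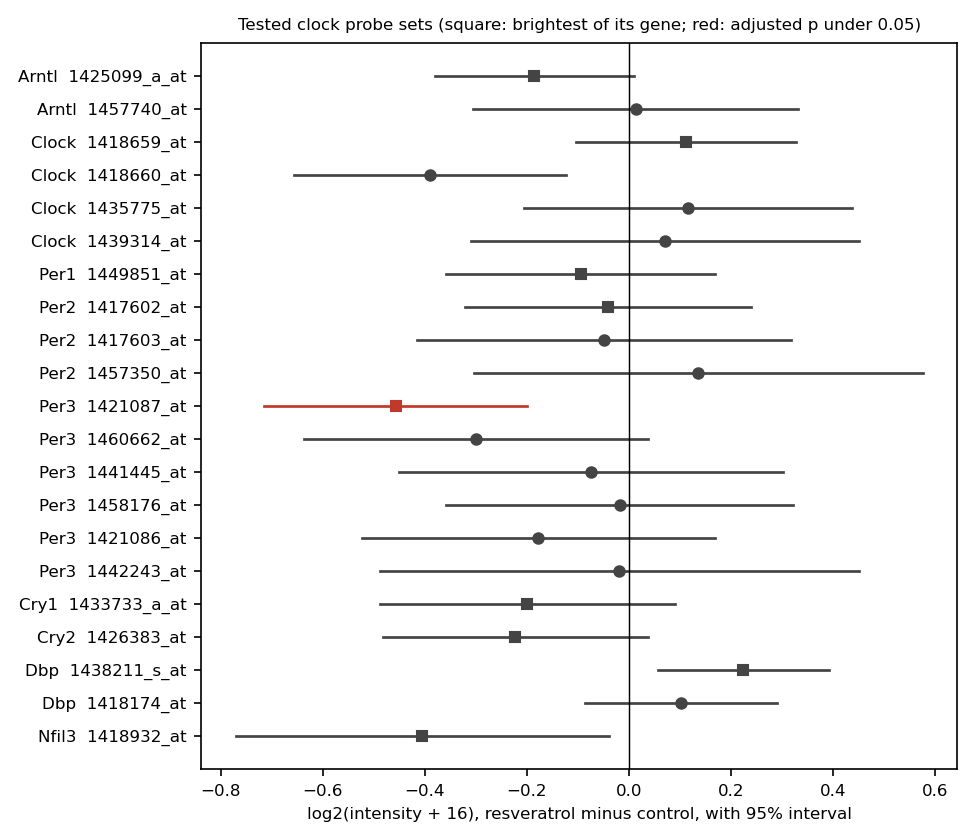
Difference between resveratrol and control in log2(intensity + 16), with its 95% interval, for the 21 tested probe sets of 9 clock genes (squares mark the brightest of a gene). The interval of the Per3 probe set 1421087_at, in red, runs from -0.71 to -0.20, and those of 1418660_at (Clock), Nfil3 and the brighter Dbp probe set also leave out 0 without passing the adjusted test.

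By the brightest probe set of each gene, 1 of 9 tested members was called, where 10.5% of 12630 genes were, 5.21% lower and 5.32% higher. The groups lay apart for 3 of the 9, beside 30.2% of all genes. The 3 genes whose profile over the 6 arrays was most like that of Per3, out of 12621 compared, were Kif21a, D930016D06Rik and Thoc2, with root mean square differences of 0.03, 0.05 and 0.05 in centred log2. Kif21a, a kinesin motor gene, had 133, 133 and 141 in control and 100, 81.0 and 110 in treated cells (log2 difference -0.43, adjusted p = 0.0518). Thoc2, of the mRNA export complex, had -0.48 (adjusted p = 0.0117). D930016D06Rik had -0.51 (adjusted p = 0.0381). These 3 were chosen for their likeness, which is no evidence of a link.

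The rest of the clock pathway was read from 5 lists of genes outside the set, by the brightest probe set. Of 51 genes tested, 8 fell, 3 rose and 40 did not pass, a share called of 21.6% beside 10.5% over all genes. That background, 5.21% lower and 5.32% higher, stands beside each list below. The lists were written with earlier results of these data known, so the share is no test of the pathway. Many of their genes are bright, and of the brightest 40% of probe sets 2521 of 18015 were called, beside 2209 of all 27022 tested. The median log2 difference of the 51 genes was -0.05, beside 0.02 over all genes. Without the intensity trend 3 of them passed, and 6, 6 and 5 did without control replicate 2, resveratrol replicate 1 and resveratrol replicate 2.

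**Figure D5:**
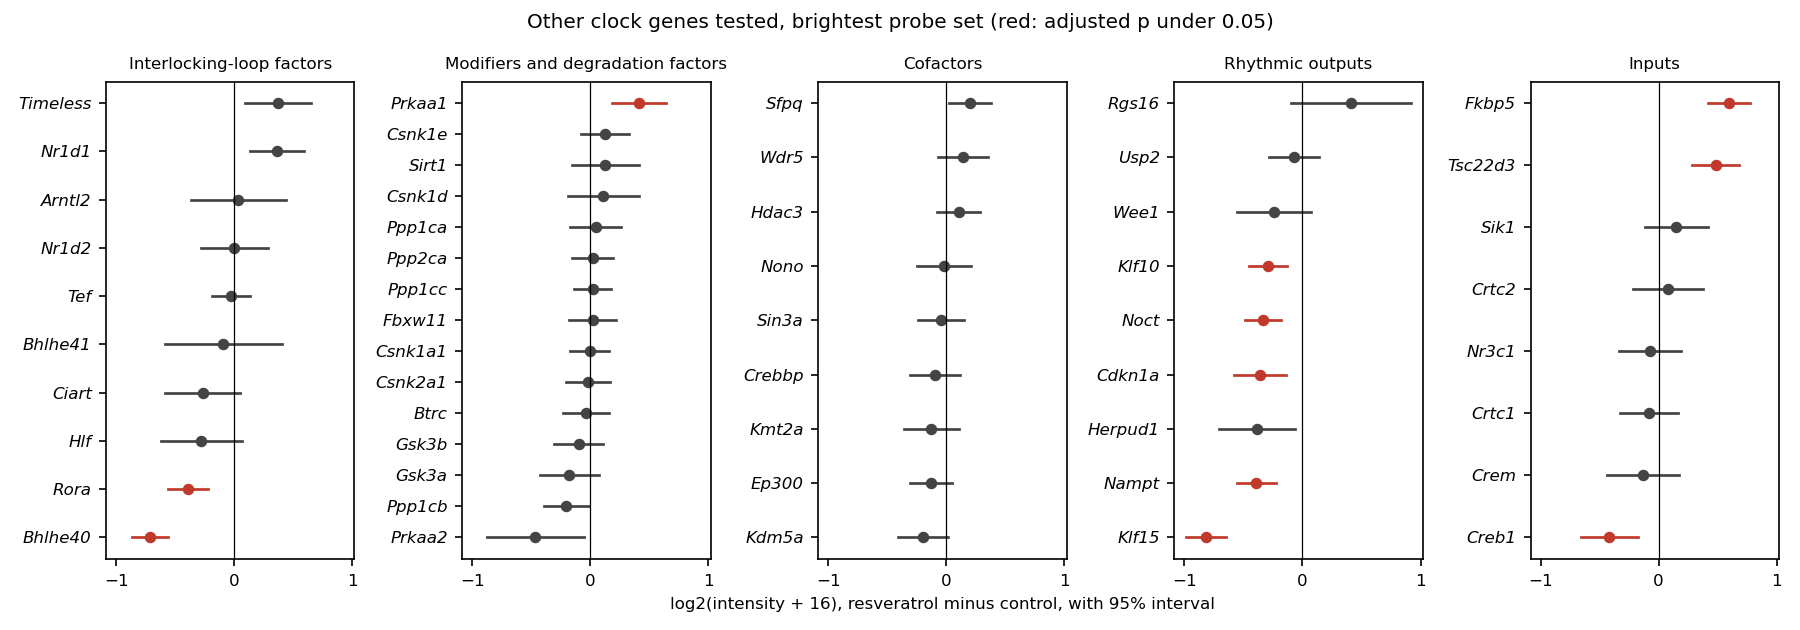
Difference between resveratrol and control in log2(intensity + 16), with its 95% interval, for the 51 tested genes of 5 clock lists, 1 panel a list (red marks an adjusted p under 0.05). The calls number 2 among the interlocking-loop factors, 1 among the modifiers, 0 among the cofactors, 5 among the rhythmic outputs and 3 among the inputs.

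In the interlocking loops 2 of 10 genes fell and none rose. Bhlhe40 (also called Dec1), which binds E-boxes and holds back the Arntl and Clock pair, had 599, 614 and 620 in control and 368, 368.5 and 365 in treated cells. Each group was tight, and the gap between them was many times their spread. The log2 change was -0.71 ± 0.07 (SE) with adjusted p = 0.000144, and it passed under all 16 other settings (averaging a gene over its probe sets being added for these lists), between -0.73 and -0.65. For genes with 1 probe set, such as Bhlhe40 and Klf15, that averaging leaves the log2 change as it was. Bhlhe41, a relative of Bhlhe40, was dim, at 18.1 to 42.6 in control and 18.4 to 31.9 in treated cells, and had -0.09 (adjusted p = 0.867).

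Rora, the nuclear receptor that activates Arntl, had 586, 607 and 590 in control and 435, 427 and 489 in treated cells. Its groups lay far apart, with a log2 change of -0.39 ± 0.08 and adjusted p = 0.0108. Of 8 tested Rora probe sets 4 were called lower and none higher. The brightest lost its call without control replicate 2, resveratrol replicate 1 or resveratrol replicate 2 (adjusted p = 0.0512, 0.0523 and 0.0547), without an intensity trend (0.0713) and as the mean of its probe sets (0.0519). The opposing receptor Nr1d1 (Rev-erb alpha), a repressor of Arntl, had 208, 232 and 178 in control and 265, 251 and 288.5 in treated cells. All 3 treated arrays were higher, with a log2 difference of 0.36 ± 0.11 that missed the threshold (adjusted p = 0.06). It passed among the brightest 40% of probe sets (adjusted p = 0.0443) and when genes were averaged over their probe sets (0.0388). Nr1d1 has 1 probe set, so in both settings its log2 difference was unchanged and only the features fitted and adjusted with it differed. That difference was 0.25 on the arrays of brighter and 0.56 on those of dimmer spikes. Nr1d2 (Rev-erb beta) had -0.00 ± 0.13 (adjusted p = 0.998).

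The remaining factors of these loops did not pass. Tef and Hlf, relatives of Dbp, had -0.03 and -0.28, with adjusted p = 0.863 and 0.336. Ciart, a repressor also known as Chrono, had 67.4, 84.1 and 92.5 in control and 60.7, 73.4 and 59.6 in treated cells (log2 difference -0.27, adjusted p = 0.316). The list median was -0.06.

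Genes that modify the clock proteins or mark them for degradation were mostly flat, with 1 of 15 higher, none lower and a median of 0.02. The called gene was Prkaa1, a catalytic subunit of AMPK, the kinase that marks cryptochromes for degradation. It had 136, 167 and 172 in control and 215, 208 and 223 in treated cells, a log2 change of 0.42 ± 0.10 (adjusted p = 0.033). That call was lost in 8 of 16 settings, among them the spike split as a block (adjusted p = 0.0751) and leaving out any array but control replicate 3 (0.0659 to 0.0974). Prkaa2, the other catalytic subunit in the list, went the other way without passing, at -0.47 (adjusted p = 0.167) with overlapping groups. Of 9 cofactors, such as the deacetylase Hdac3 and the acetyltransferase Ep300, 0 passed by limma at the brightest probe set, and their median was -0.05. At an unadjusted p under 0.05 there was 1, Sfpq, a splicing factor, at 0.20 (adjusted p = 0.18). The dimmer Sfpq probe sets mostly went the other way, with -0.30, -0.21, -0.13, -0.07 and 0.15, and none passed. The one at -0.30 also had an unadjusted p under 0.05 (adjusted p = 0.215), so Sfpq had no single direction. Other probe sets of 2 cofactors did pass, Kdm5a (a histone demethylase) lower at -0.43 (adjusted p = 0.0237) and Nono (an RNA-binding partner of Per) higher at 0.43 (adjusted p = 0.0305).

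Among the rhythmic outputs, genes known to cycle under the clock in one tissue or another, 5 of 9 fell, none rose, and the median was -0.34. Over all genes 5.21% were called lower and 5.32% higher, and this list too was written with earlier results known. Klf15, a factor of nutrient metabolism, had 532, 590 and 545 in control and 317, 311 and 296 in treated cells, a log2 change of -0.82 ± 0.08 with adjusted p = 0.00012 that passed under all 16 settings. Nampt, the rate-limiting enzyme of NAD salvage, had 1225, 1381 and 1339 in control and 966, 1012 and 1017 in treated cells (log2 change -0.39, adjusted p = 0.00884, or 0.0688 with no intensity trend). The dimmer Nampt probe sets had -0.30 and -0.21 and did not pass (adjusted p = 0.0511 and 0.396). Noct, the phosphatase nocturnin, had 1314, 1258 and 1272.5 in control and 971, 1025 and 1038 in treated cells (log2 change -0.34, adjusted p = 0.0132). Its call was lost without resveratrol replicate 1 or 2 (adjusted p = 0.0694 and 0.05) and with no intensity trend (0.0838). Klf10 and Cdkn1a, the cell cycle inhibitor p21, fell by 0.29 and 0.36 with adjusted p = 0.0349 and 0.0495. Both calls were weak. Klf10 kept its call when control replicate 1 was left out and lost it for each of the other arrays (adjusted p = 0.0714 to 0.132), and Cdkn1a kept it without control replicate 3 only (0.077 to 0.191 for the others).

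The list of inputs holds factors that carry signals to the clock and also targets of such signals. Of its 8 genes tested, 2 rose and 1 fell. The 2 that rose, Fkbp5 and Tsc22d3, are targets of the glucocorticoid receptor, whose hormone resets clocks in culture. These 2 are no survey of the receptor's targets, and its activity was not tested. The gene of that receptor, Nr3c1, had -0.07 (adjusted p = 0.795). Fkbp5 had 605, 562 and 565 in control and 911, 933 and 802 in treated cells, a log2 change of 0.60 ± 0.08 with adjusted p = 0.00119 that passed under all 16 settings. Tsc22d3 had 501, 554.5 and 575 in control and 836, 787 and 682 in treated cells, a log2 change of 0.48 ± 0.09 with adjusted p = 0.00831, or 0.0646 with no intensity trend. It was 0.65 on the arrays of brighter and 0.34 on those of dimmer spikes. At the brightest probe set of both genes each treated array was above each control. Of the tested probe sets, 2 of 2 were called higher for Fkbp5 and 2 of 4 for Tsc22d3. The others of Tsc22d3 had 0.49 and 0.07 (adjusted p = 0.154 and 0.888), with overlapping groups.

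Creb1, the factor that carries cyclic AMP signals to the Per genes, had 207, 213 and 243 in control and 150, 150 and 186 in treated cells, a log2 change of -0.42 ± 0.11 (adjusted p = 0.0392). Of its 5 tested probe sets 2 were called lower, and the mean of the 5 had -0.12 (adjusted p = 0.546). The call was lost without control replicate 2 or 3 and without resveratrol replicate 1 or 2 (adjusted p = 0.0908, 0.118, 0.136 and 0.14).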

How the data were processed

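The deposited table holds intensities on a linear scale for 6 arrays, which the authors scaled by 1 factor per array, as read from the values (every array has a trimmed mean of 150). Total RNA was labelled with biotin by the array maker's protocol, per the labels' protocols, and the summarising software was not given in the sources used here. Values became log2(intensity + 16). The 64 control probe sets were left out, the 60% with the highest mean log2 value were tested (27022), and groups were compared with limma 3.58.1 in R 4.3.3 (eBayes with an intensity trend, 2-sided). Adjustment was by Benjamini-Hochberg over all probe sets tested, and intervals are at 95%. Contrasts between probe sets of a gene used exact permutation. The fit was tested on simulated data.

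The members, lists and tests were chosen with earlier results of these data known. Named are all members, called list genes and 8 fixed loop genes (Nr1d1, Nr1d2, Rora, Bhlhe40, Bhlhe41, Tef, Hlf, Ciart). Csnk2b, Ncor1 and Por had no probe set naming them alone and were not analysed here. Rorb, Fbxl21 and Ppara were too dim to test. Symbols came from the platform annotation. Coordinates are those of the RefSeq promoter table. Figures were drawn with matplotlib 3.10.9 in Python 3.11.15.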

Additional observations from a re-analysis of the deposited data

How the results depend on the processing

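Alternatives changed 1 choice at a time. Over all probe sets, 2209 calls became 1396 with no filter, 861 with no intensity trend, and 1131 to 1952 with 1 array left out. The member probe sets called, 1 as reported, became 0 with no filter, 0 with no intensity trend and 0 with the spike-signal split as a block, and 0 to 1 with 1 array left out. Without control replicate 3 the 1 called was Nfil3 and not Per3. The calls among other clock genes, 11 as reported, became 3 with no intensity trend and 5 to 9 with 1 array left out. With the replicate number as a block (replicate block) the counts were 1894, 1 and 9, and the calls of Klf10 and Cdkn1a were lost (adjusted p = 0.0612 and 0.0787). The numbers share no batch in the labels, and same-numbered arrays deviated with r = -0.06, -0.02 and 0.09. Signs turned for values near 0 that did not pass in either setting. With the spike split as a block Per2 (1417603_at) had 0.00834, Per3 (1442243_at) 0.00645 and Bhlhe41 0.0166. With an offset of 64 Per3 (1442243_at) had 0.000623 and Nr1d2 0.000976. As the mean of its probe sets, Clock had -0.0226, Per2 0.0155, Nr1d2 0.00681 and Tef 0.0137. With 1 array left out, the ranges that crossed 0 were -0.0628 to 0.0723 for Arntl (1457740_at), -0.127 to 0.213 for Clock (1439314_at) and -0.164 to 0.0423 for Per1. They were -0.107 to 0.0346 for Per2 (1417602_at), -0.139 to 0.0857 for 1417603_at and -0.00361 to 0.323 for 1457350_at, and for Per3 -0.1998 to 0.0664 (1441445_at), -0.112 to 0.0868 (1458176_at) and -0.167 to 0.2201 (1442243_at). They were -0.164 to 0.114 for Nr1d2, -0.2803 to 0.110 for Bhlhe41 and -0.0681 to 0.00519 for Tef. For these the cause was not tested. Among the brightest 40% of probe sets 6 dimmer member probe sets could not be tested.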
